A study of Mus musculus with 8 samples.

Results

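Olfactory and vomeronasal receptor genes form the largest gene families of the mouse genome, and their gene bodies were examined here for 5-methylcytosine (5mC) in lymphocytes, cells in which these receptors have no known sensory role. All genes on chromosomes 1 to 19 whose GENCODE symbol starts with Olfr, Vmn1r or Vmn2r were taken, and a gene was kept when at least 3 CpGs of its body were listed in all 4 deposited tables. Of 1960 annotated genes 1700 met this minimum, among 43259 genes of these chromosomes that met it in all. The 1700 genes comprised 1283 of 1399 Olfr genes, 224 of 326 Vmn1r genes and 193 of 235 Vmn2r genes. Of the 260 genes left without a value, 102 Olfr, 51 Vmn1r and 28 Vmn2r genes held fewer than 3 CpGs in the reference sequence of their body.

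The cells were splenic, from C57BL/6J mice of both sexes aged 6 to 8 weeks, with no genetic change or treatment named for any group, and each library pooled cells of several animals. Naive CD4+ T cells were sorted as CD4+ CD62Lhi CD44lo CD25- and resting B cells as CD43-. B and T cells of each sex made 4 groups. Wherever 4 values of a gene follow each other, the female pair comes before the male pair, with B before T cells in each. Whole-genome oxidative bisulfite sequencing was used, in which 5-hydroxymethylcytosine is first oxidised and then reads as unmethylated, so that the remaining signal is 5mC alone. The 2 samples of each group share 1 table. Its name carries the number of 1 of them, so it may hold that sample alone, but both samples name it. Each group was therefore counted as 1 library, with no spread within a group. The comparison of B with T cells rests on 1 female and 1 male pair of libraries. The tables held 280919817 to 354634149 reads at CpGs, with a median of 14 to 17 reads per autosomal CpG. The markers of the labelled cell types were as named at their gene starts. Ms4a1, the gene of the B cell antigen CD20, stood at 12.7% and 13.8% in B cells and 95.2% and 94.4% in T cells, whereas Cd3e, a chain of the T cell receptor complex, stood at 84.9% and 86.1% in B cells and 1.23% and 1.38% in T cells. All 4 B cell markers examined were lower in B cells and all 4 CD4 T cell markers lower in T cells. Of 8 markers of other cells, Cd8a and Cd8b1 were lower in T cells (Cd8b1 at 29.2% and 29.7% against 88.5% and 91.6%). The natural killer cell markers Ncr1 and Klrb1c lay between 78.9% and 90.7%, and the myeloid marker Csf1r between 88.2% and 91.5%. Cd14 was low everywhere, at 11.5% to 16.2%, Lyz2 was lower in B cells by a B minus T difference of -16.8 points, and Itgam was lower in T cells by 13.0 points. The part of other cells in the results below was not tested.

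Olfr genes encode the odorant receptors of the main olfactory epithelium, each with its coding sequence in a single exon. Each sensory neuron expresses 1 allele of 1 of them, and the unchosen genes lie in constitutive heterochromatin. Vmn1r and Vmn2r genes encode the receptors of the vomeronasal organ. Vmn1r proteins resemble taste receptors and, like Olfr proteins, are encoded without introns in the coding sequence, whereas Vmn2r proteins carry a long extracellular domain built from several exons and include pheromone receptors. The genes of all 3 families lie in tandem arrays that grew by duplication. Promoter sequences of RefSeq on GRCm38 span 250 bases before to 50 bases after the RefSeq start of a gene. The median Olfr, Vmn1r and Vmn2r promoter held 1 CG, against 7 over all 31396 promoters of these chromosomes. This set of sequences matched 930 annotated Olfr, 185 Vmn1r and 114 Vmn2r genes. In the sequences of Olfr312, Olfr531, Olfr60, Olfr61 and Vmn2r27 the RefSeq start falls on an ATG. Receptor windows may thus flank the coding start and not the start of transcription, which limits the comparison with all promoters.

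Stretches of 200 bases are shown for genes to which the results return. Each holds the most CpGs of its gene body that were listed in all 4 libraries, for coding genes outside the non-coding parts of exons, and is written 5′ to 3′ on the gene's strand from GRCm38 with those CpGs in capitals. Olfr9 and Olfr420 had the widest gaps between B and T cells, Vmn2r36 was the 1 receptor gene body called as higher in T cells, and Olfr1069-ps1 had the lowest mean level of the receptor gene bodies. The Olfr9 stretch lies at chr10:128990479-128990678 on the plus strand and overlaps the coding exon, the Olfr420 stretch at chr1:174159310-174159509 on the plus strand, also over coding sequence, the Vmn2r36 stretch at chr7:7897211-7897410 on the minus strand within an intron, and the Olfr1069-ps1 stretch at chr2:86464468-86464667 on the minus strand over the exon of this pseudogene.
Olfr9: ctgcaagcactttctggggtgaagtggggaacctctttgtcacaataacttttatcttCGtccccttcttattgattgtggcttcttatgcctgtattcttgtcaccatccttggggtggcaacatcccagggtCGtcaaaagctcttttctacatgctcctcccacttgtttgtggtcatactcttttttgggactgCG
Olfr420: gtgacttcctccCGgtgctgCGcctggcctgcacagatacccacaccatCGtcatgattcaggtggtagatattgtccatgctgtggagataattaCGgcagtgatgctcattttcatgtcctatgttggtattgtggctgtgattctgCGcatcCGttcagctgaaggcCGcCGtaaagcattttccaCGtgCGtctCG
Vmn2r36: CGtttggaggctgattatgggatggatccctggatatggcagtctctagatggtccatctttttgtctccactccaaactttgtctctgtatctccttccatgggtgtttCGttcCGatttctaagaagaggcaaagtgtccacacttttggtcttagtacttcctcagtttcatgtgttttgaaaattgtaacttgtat
Olfr1069-ps1: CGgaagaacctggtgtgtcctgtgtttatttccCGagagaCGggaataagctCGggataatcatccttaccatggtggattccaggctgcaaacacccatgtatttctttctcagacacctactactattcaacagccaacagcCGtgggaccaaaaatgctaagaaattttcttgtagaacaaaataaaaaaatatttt
The CpGs of the Olfr420 stretch, 11 in number, were methylated in 56.6% and 53.4% of reads in B cells and in 9.78% and 5.15% in T cells. The 3 CpGs of the Olfr9 stretch stood at 64.3% and 66.0% in B cells and 16.7% and 14.5% in T cells. In the Olfr1069-ps1 stretch the share over 5 CpGs was 74.4% and 76.4% in B cells and 65.1% and 52.3% in T cells. These values lie above the mean level of the whole body, 28.0%. The low level of Olfr1069-ps1 thus comes from CpGs outside the stretch shown. In the Vmn2r36 stretch it was 82.6% and 70.8% in B cells and 90% and 86.8% in T cells, from 23 to 38 reads summed over its CpGs.

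Receptor gene bodies were highly methylated in both cell types, and the families differed by little. A gene's level is the share of all reads at its CpGs that were methylated. Read numbers of a gene or stretch are sums over its CpGs, so a read that covers several CpGs counts at each. The median Olfr gene stood at 86.5% and 86.2% in the female B and T cells and at 86.3% and 86.0% in the male ones. The median Vmn1r gene stood at 83.9%, 83.7%, 84.0% and 84.1%, and the median Vmn2r gene at 84.2%, 85.0%, 84.5% and 84.4%. The median of all other genes was 84.0%, 82.6%, 84.3% and 82.6%. Thus Olfr genes were above Vmn1r genes in every library, by 2.28 percentage points on average (SD 0.283, n = 4 libraries), and above Vmn2r genes by 1.71 points (SD 0.456, n = 4). Vmn1r genes were below Vmn2r genes in all 4 libraries, with a mean difference of -0.576 points (SD 0.452), but the medians of each gene's mean over the libraries were both 84.1%, and without near-identical copies they were 84.3% and 84.1%, so no order of these families is drawn. With reads pooled over all genes of a family, Olfr stood at 85.4%, Vmn1r at 83.6% and Vmn2r at 85.4%, so that the gap between Olfr and Vmn2r genes was not seen on that scale. These libraries are the same cells for every family, and an exact sign-flip test over 4 libraries cannot reach p = 0.05, so no p is given.

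Low levels were rare in the receptor families. The 5th percentile of the mean level over the 4 libraries was 74.8% in Olfr, 69.1% in Vmn1r and 73.3% in Vmn2r genes, against 17.6% in all other genes. A mean level below 50% was found in 7 of 1700 receptor genes, 0.412%, and in 13.0% of all other genes. At the upper end, 18.1% of receptor genes and 26.6% of all other genes were at 90% or more. Of the other protein-coding genes alone 7.33% were, with a median level of 76.0% against 85.7% over receptor genes. Of the single CpGs in Olfr gene bodies 75.6% to 77.0% were methylated in at least 80% of reads, depending on the library, and 1.95% to 2.41% in at most 20%. In Vmn2r genes the share at or below 20% was 0.810% to 1.01%.

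**Figure D1:**
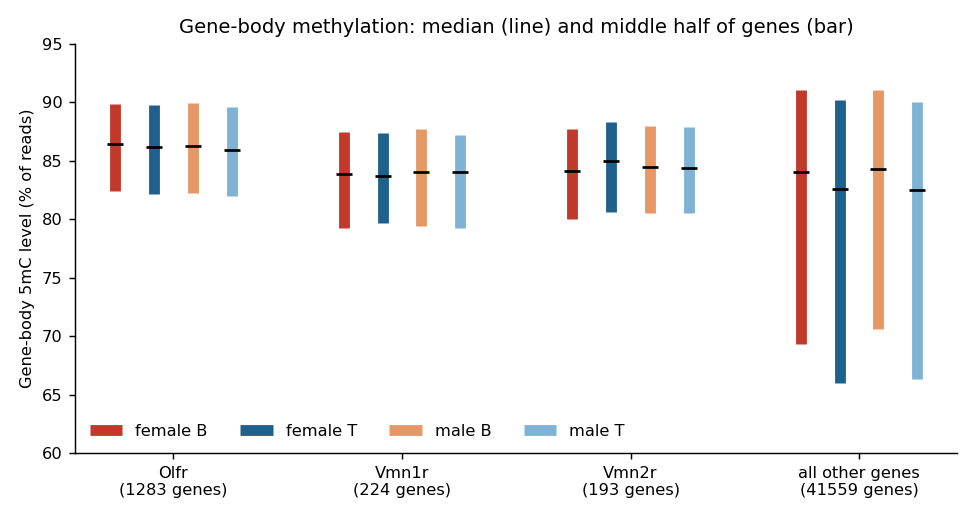
Gene-body 5mC level in percent of reads, by family and library; black lines are medians over genes, and bars span the first to the third quartile. The bars of the 3 receptor families start at 79.2% or above, whereas those of all other genes reach down to 66.0%.

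Receptor genes of higher CpG density had higher levels. From below 3 CpGs per kb through 3 to 5 and 5 to 10 to at least 10 CpGs per kb, the median level over genes was 83.4% (232 genes), 85.2% (893 genes), 87.1% (479 genes) and 89.5% (96 genes). In all other genes the same bins had medians of 86.0%, 86.3%, 86.0% and 79.2%, so that the densest receptor genes lay above and the densest other genes below the rest of their set. The median density was 4.22 CpGs per kb in measured Olfr, 4.15 in Vmn1r and 3.87 in Vmn2r genes, against 12.3 in all other measured genes. Across the 156 Vmn2r genes with at least 100 reads in each library, the correlation of density with level was r = 0.498, against 0.0732 over 1081 Olfr genes and 0.182 over 151 Vmn1r genes. These are correlations across genes, which share libraries and neighbourhood and are not independent replicates. Within genes, the coding sequence of Olfr genes stood at 87.3% of reads, averaged over libraries, and their introns at 84.7%. The order was the opposite in Vmn1r genes, with 82.3% in coding sequence and 84.1% in introns, and in Vmn2r genes the values were 85.2% and 85.5%.

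The 171 measured Olfr pseudogenes had a median level of 87.3% and the 1112 protein-coding Olfr genes 86.0%. In Vmn1r the medians were 86.3% over 52 pseudogenes and 83.1% over 172 coding genes, and in Vmn2r 84.1% over 74 and 83.8% over 118. Pseudogene bodies were shorter, with median lengths of 951 against 6036 bases in Olfr and 912.5 against 7981.5 in Vmn1r. Olfr pseudogenes were also denser, at a median of 5.53 against 4.10 CpGs per kb. The part of length and density in these gaps was not tested.

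Around their starts, receptor genes with no gene outside the families starting close by lacked the trough of other genes. Reads were summed over CpGs in bins of 500 bases. Receptor genes were used when no gene outside the families started within 5 kb, so another receptor gene may start there. Other protein-coding genes were used when no other gene of any kind started within 5 kb. In the bin just upstream of the start the mean level over the 4 libraries was 17.3% for 11596 other protein-coding genes, and it was 82.8% for 1180 Olfr, 84.2% for 206 Vmn1r and 83.9% for 175 Vmn2r genes. With receptor genes near the start of a gene outside the families included, Vmn1r genes gave 70.8%, 68.2%, 71.8% and 68.2% in this bin. Olfr genes then gave 82.8% to 83.5% over the 4 libraries and Vmn2r genes 82.9% to 85.4%. Olfr genes were shallowly lower near the start, at 82.8% to 84.0% in the 5 bins from 500 bases upstream to 2000 bases downstream, against 85.8% to 87.0% in the 9 bins farther upstream. Vmn1r genes fell to 80.2% in the bin from 0 to 500 bases after the start. Vmn2r genes fell to 81.8% from 500 to 1000 bases after it, but they were also at 80.1% from 3500 to 3000 bases upstream. Single receptor gene starts, taken as 1 kb to either side, were nevertheless almost unmethylated. These windows were taken from all measured receptor genes, including those near starts of genes outside the families. The start of Vmn1r4 stood at 5.21%, 3.18%, 7.51% and 3.07% over 93 CpGs, and that of Olfr1372-ps1 at 5.07%, 3.99%, 7.81% and 5.75%. Both were named after their values were seen.

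**Figure D2:**
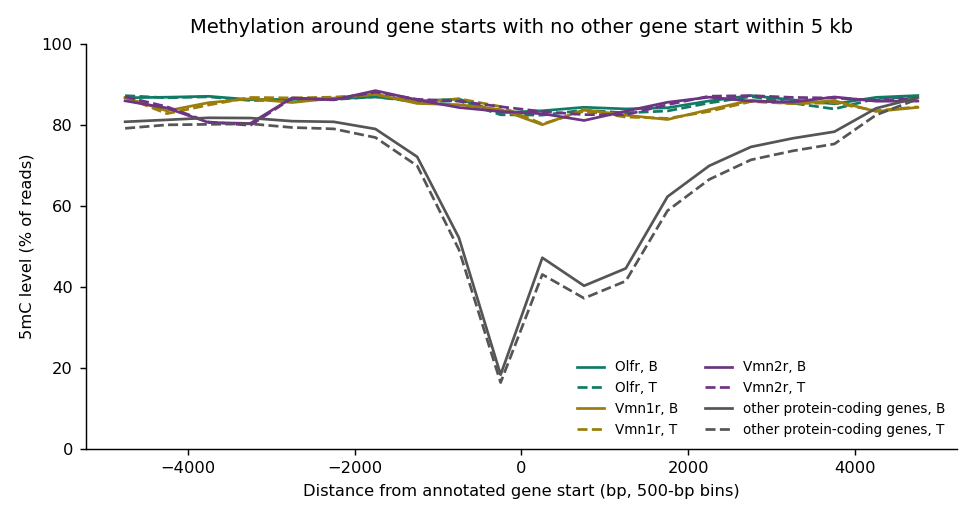
5mC level in percent of reads against distance from the annotated gene start in bins of 500 bases. Other protein-coding genes had no other gene start within 5 kb, and receptor genes no start of a gene outside the families. Solid lines are means of the 2 B cell libraries and dashed lines of the 2 T cell libraries. Other protein-coding genes fall to 17.3% just upstream of the start, while the 3 receptor families stay between 79.4% and 89.5% in every bin and library.

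Few receptor genes fell far below their family. Olfr1069-ps1, an Olfr pseudogene on chromosome 2, was the lowest at 31.96%, 22.9%, 30.3% and 27.0% over 10 CpGs. The B minus T difference was not called (6.15 points, adjusted p = 0.289). Olfr94, a coding gene on chromosome 17 that lies 330 bp from the ubiquitin-like gene Ubd, stood at 26.4%, 25.7%, 31.0% and 29.5% over 114 CpGs. It held 25.6 CpGs per kb. The body of Olfr94 was not low throughout. Its CpGs from 128 to 2927 bases after the start were at 58.3% or above in every library. Those from 3363 to 4152 bases were at 30.8% or below in every library. Olfr1542-ps1 on chromosome 10 stood at 22.6%, 38.5%, 26.5% and 34.1%, from only 3 CpGs and 31 to 41 reads. The lowest Vmn1r genes were Vmn1r-ps135 at 28.2%, 39.4%, 34.6% and 23.1%, Vmn1r-ps150 at 31.4%, 58.5%, 57.1% and 56.8%, and Vmn1r170 at 59.2%, 56.7%, 48.0% and 55.9%. Each of these 3 rests on 3 or 4 CpGs and on 26 to 67 reads per library, so that the 95% Wilson interval of Vmn1r-ps135 in male T cells ran from 11.03% to 42.1%. Vmn2r-ps40 at 62.0%, 77.6%, 59.6% and 60.5%, Vmn2r-ps86 at 61.4%, 72.2%, 72.5% and 62.0% and Vmn2r-ps61 at 65.9%, 63.6%, 67.7% and 74.7% were the lowest of their family. No difference between B and T cells was called in any of them. At the upper end, Olfr547 stood at 98.3%, 96.7%, 97.0% and 95.9% over 18 CpGs and Olfr184-ps1 at 100%, 100%, 89.3% and 100% over 3 CpGs. Vmn1r19 and Vmn1r-ps55 lay between 92.0% and 98.2%, and Vmn2r-ps3 and the shorter of the pair of annotated genes named Vmn2r-ps111 between 94.1% and 98.2%.

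Levels varied between clusters. A cluster is a run of 1 family whose neighbouring starts are at most 1 Mb apart, described where it held at least 5 measured genes: 30 Olfr clusters with 1241 genes, 8 Vmn1r clusters with 214 and 11 Vmn2r clusters with 170. Their mean levels ran from 77.2% to 90.2% in Olfr, from 78.8% to 88.5% in Vmn1r and from 79.6% to 93.3% in Vmn2r clusters. Over all CpGs of the cluster spans, not only those in receptor genes, the range in Olfr was 22.7 points in place of 13.0. The largest Olfr cluster of high level lay on chromosome 7 at chr7:102476579-105369355. It holds the class I receptors, the fish-like odorant receptors that in mammals sit in a single array around the beta-globin locus. Its 150 measured genes had median levels of 91.1%, 91.5%, 91.2% and 90.8%, against 85.8%, 85.8%, 85.8% and 85.4% for the 1133 other Olfr genes. Of the class I genes 58.7% reached 90% or more, against 14.5% of the others. Class I genes were denser in CpGs, with a median of 5.49 per kb against 4.10. Within bins of density their medians were 90.1% (54 genes) against 85.4% (592 genes) between 3 and 5 CpGs per kb. Between 5 and 10 they were 91.4% (68 genes) against 86.7% (306 genes). Density was not matched inside a bin, and its part in the difference was not tested. This cluster was chosen after the levels were seen, and the difference is a description.

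A cluster of 6 measured Olfr genes on chromosome 4 was as high, with a mean level of 90.2%. The lowest Olfr cluster, at chr17:37083871-38336643 beside the major histocompatibility complex, stood at 77.2% over 52 genes, and without Olfr94 at 81.9%. The highest and the lowest Vmn1r clusters were at chr6:66552180-66810609, with 88.5% over 9 genes, and at chr17:20405004-21323766, with 78.8% over 19 genes. Vmn2r clusters reached from 79.6% over 33 genes at chr7:7153687-10176573 to 93.3% over 5 genes at chr14:51377284-51464172. Neighbouring genes of a cluster were only loosely alike, with r = 0.277 over 1029 Olfr pairs, 0.274 over 140 Vmn1r pairs and 0.505 over 135 Vmn2r pairs, as descriptions over genes that share libraries.

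**Figure D3:**
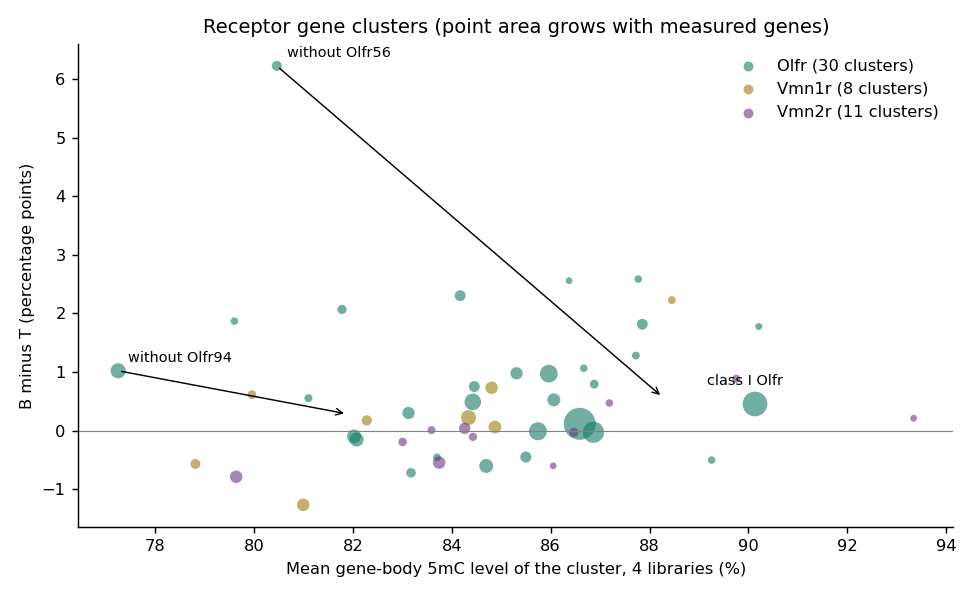
Mean gene-body 5mC level of each cluster in percent of reads (horizontal axis) against the B minus T difference in percentage points (vertical axis); each point is 1 cluster of at least 5 measured genes, its area growing with their number, and arrows end at the values without the named gene. Without Olfr56 the highest difference falls from 6.22 to 0.566 points, and without Olfr94 the lowest level rises from 77.2% to 81.9%.

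B and T cells differed little across receptor genes, while other genes were on balance higher in B cells. The B minus T difference is the mean of the female and the male difference. Its median was 0.233 points over Olfr, 0.0332 over Vmn1r and -0.203 over Vmn2r genes, against 1.24 over all other genes. The sexes gave medians of 0.0784 and 0.363 in Olfr, 0.0260 and 0.167 in Vmn1r and -0.252 and 0.189 in Vmn2r genes, so that the Vmn2r median differed in sign between them. B cells were higher in 54.2% of Olfr, 50.9% of Vmn1r, 43.5% of Vmn2r and 71.3% of all other genes. Both B cell libraries were above both T cell libraries in 336 receptor genes, 19.8%, and below in 275, 16.2%. In all other genes these shares were 44.8% and 11.5%.

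In receptor genes B and T cells differed hardly more than the sexes did. Over the 1388 receptor genes with at least 100 reads in each library, the median absolute difference between B and T cells was 1.84 points in females and 1.97 in males, and that between the sexes 1.69 in B cells and 1.72 in T cells. In 35990 other genes with this depth the corresponding values were 2.03, 2.33, 1.38 and 1.24. The female and the male B minus T differences were correlated across receptor genes with r = 0.334, against 0.801 over the other genes, called genes included in both. Without the called genes the correlation was 0.114 over 1376 receptor genes. The called genes were selected by this difference, so leaving them out can by itself lower r. Called genes were not left out of the other genes, so 0.114 is not comparable with 0.801. Receptor genes have fewer reads than other genes, and the part of sampling noise in this contrast was not tested.

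A gene was called when the edgeR quasi-likelihood test on methylated and unmethylated reads, with sex as a block, gave an adjusted p below 0.05 over all 43259 genes and the mean difference was at least 10 points. Of all genes 5.73% were called, 4.87% with more methylation in B cells and 0.860% with more in T cells. Of 1700 receptor genes 14 were called, 13 Olfr genes higher in B cells and 1 Vmn2r gene higher in T cells. These were 1.01% of Olfr and 0.518% of Vmn2r genes. No Vmn1r gene was called. By edgeR 15 of 224, 6.70%, had an unadjusted p below 0.05, against 32.9% of all genes outside the families. Without the minimum difference 45 receptor genes passed, 36 of them higher in B cells, against 23.0% of all genes. At 20 points or more 3 receptor genes were called, with no share over all genes given here. Plain limma, the alternative test, called 0 receptor genes, as it did of all genes.

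The widest difference was at Olfr9 on chromosome 10. Its body, chr10:128989431-128992102, was methylated in 79.6% of 255 reads and 29.7% of 222 reads in the female B and T cells, and in 79.0% of 200 and 28.8% of 222 in the male ones. Both B cell libraries were far above both T cell libraries, by 50.02 points (adjusted p = 2.23e-11). The 95% Wilson interval in female T cells ran from 24.1% to 36.1%, a bound on counting error only, as for every interval given. These intervals treat reads summed over CpGs as independent, so they are too narrow where 1 read covers several CpGs. All 12 CpGs listed there were higher in B cells, 11 of them by at least 20 points, and 1 CpG 1541 bases after the start was at 85.7% and 94.4% in B cells and at 0% of 28 and 27 reads in T cells. Olfr763, the next measured receptor gene 18689 bp away, followed with 79.7%, 66.1%, 76.5% and 67.1% (11.5 points, adjusted p = 0.00729).

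Olfr420 on chromosome 1, chr1:174155633-174162195, stood at 76.8% of 590 reads, 55.1% of 719, 79.7% of 538 and 50.1% of 659. B cells were higher by 25.7 points (adjusted p = 1.85e-08). The difference lay in 1 stretch of the coding exon: the 12 CpGs that differed by at least 20 points lay between 3297 and 3875 bases from the start, those in the middle of this stretch were low in every library, and the printed sequence falls in it. The measured receptor genes on either side, Olfr421-ps1 and Olfr419, differed by 1.03 and -2.41 points and were not called.

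**Figure D4:**
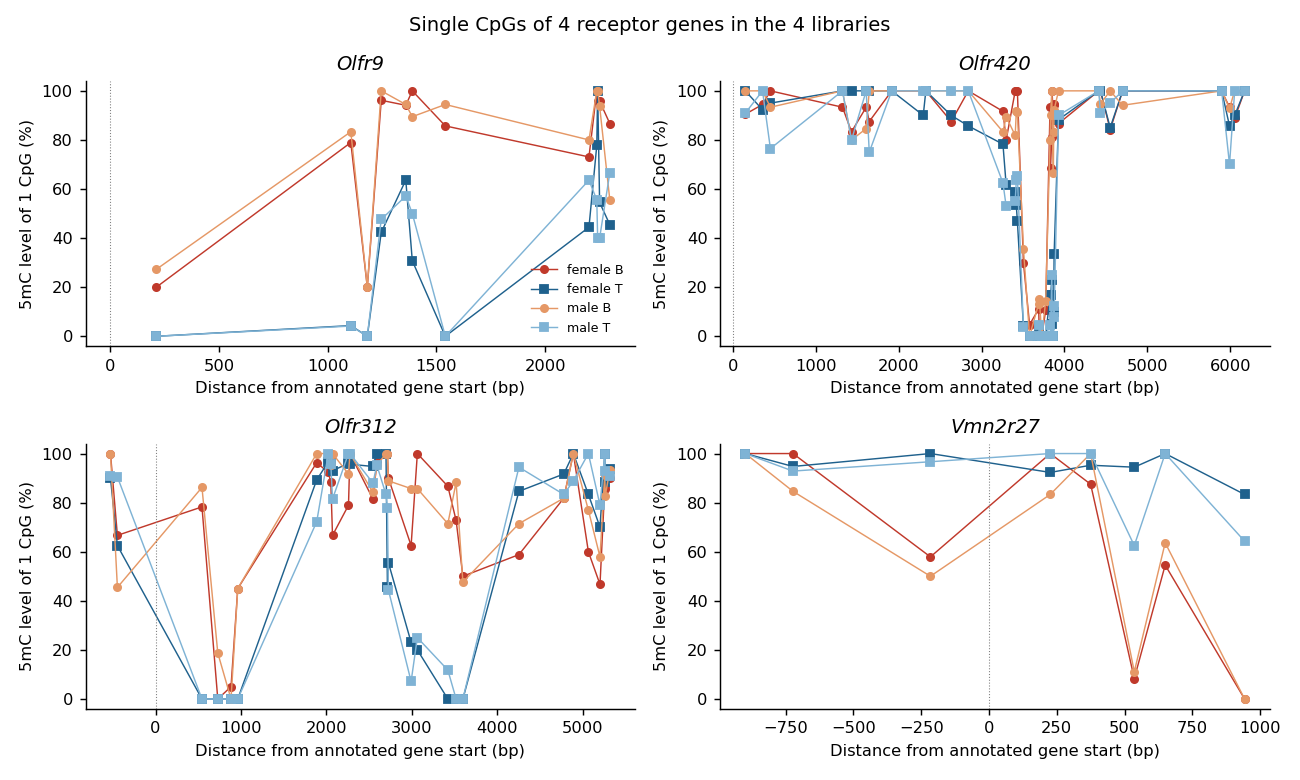
5mC level of single CpGs in percent against distance in bases from the annotated gene start, for Olfr9, Olfr420, Olfr312 and the 2-kb start window of Vmn2r27; circles are B cell and squares T cell libraries. In Olfr420 CpGs that differ by at least 20 points lie between 3297 and 3875 bases, and in Vmn2r27 the B cell libraries are lower by at least 20 points at 4 of 8 CpGs.

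A run of 4 neighbouring Olfr genes on chromosome 11, Olfr314, Olfr313, Olfr312 and Olfr311, had higher gene-body levels in B cells. The run spans 61.2 kb, and the DNA between its genes was not compared. Olfr314 stood at 81.2%, 67.4%, 81.7% and 66.9%, a difference of 14.3 points (adjusted p = 7.57e-07). Olfr312 stood at 73.1%, 62.9%, 79.4% and 58.4%, a difference of 15.6 points (adjusted p = 0.000155). Olfr313 and Olfr311 differed by 10.3 and 13.7 points. The next receptor gene before the run, Olfr315, 2701 bp away, stood at 91.9%, 90.9%, 90.4% and 91.5% and did not share the difference. In Olfr312 the differing CpGs formed separate stretches: of its 30 CpGs from 1 kb upstream of the start to its end, 9 were higher and 4 lower in B cells by at least 20 points.

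Of the other called genes, Olfr530 stood at 85.7%, 71.6%, 89.0% and 71.0% (16.0 points, adjusted p = 4.14e-06) and Olfr700 at 92.9%, 75.3%, 92.6% and 78.2% (15.9 points, adjusted p = 0.000233). Both lie on chromosome 7. Olfr699, 12197 bp from Olfr700, differed by 10.9 points, Olfr1510 on chromosome 14 by 10.98 and Olfr39 on chromosome 9 by 10.01. Over exons alone Olfr530 differed by 2.33 points and Olfr1510 by 3.78, neither called, and the calls of Olfr39 (13.4 points) and Olfr699 (9.77 points) were lost there as well. With at least 10 reads per CpG the calls of Olfr700 (5.84 points) and Olfr313 (8.21 points) were lost, and by limma with a variance trend those of Olfr699, Olfr763 and Vmn2r36. In 8 of the 14 called genes the next measured receptor gene within 100 kb was called too. When single libraries were left out, the call of Olfr699 was lost in all 4 cases (9.55 to 12.2 points), those of Olfr39 (8.05 to 11.3 points where lost) and Olfr763 (9.92 to 12.03 points where lost) in 3, that of Olfr313 in 2 (8.46 and 9.14 points) and that of Olfr1510 in 1 (9.63 points).

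Olfr56 on chromosome 11 was called with 14.0 points (adjusted p = 5.39e-10), from 76.9%, 63.5%, 77.3% and 62.6% over 646 CpGs. Its annotated body spans 156499 bases and holds the starts of 9 genes of no receptor family, among them the interferon-inducible GTPase genes Tgtp1, Tgtp2 and Ifi47. These 3 genes alone differed by 32.5, 14.7 and 28.9 points in the same direction. Over the exons of Olfr56 itself the difference was 3.49 points (adjusted p = 0.382).

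Vmn2r36 on chromosome 7 was the 1 receptor gene called as higher in T cells, with 61.0%, 80.4%, 59.0% and 84.8% and a difference of -22.6 points (adjusted p = 0.0211). It rests on 5 of the 94 CpGs of its body and on 39 to 66 reads per library, summed over these CpGs. Its exons matched those of another member at 97.2% identity, so reads of such copies may not be told apart. The call is uncertain, and it was lost without the female T, the male B or the male T cell library, with differences of -24.9, -21.6 and -20.4 points. Its 95% Wilson intervals ran from 45.7% to 74.3% in female B cells and from 68.2% to 88.7% in female T cells, which overlap, and from 43.4% to 72.9% and from 74.3% to 91.6% in the male ones, which do not.

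**Figure D5:**
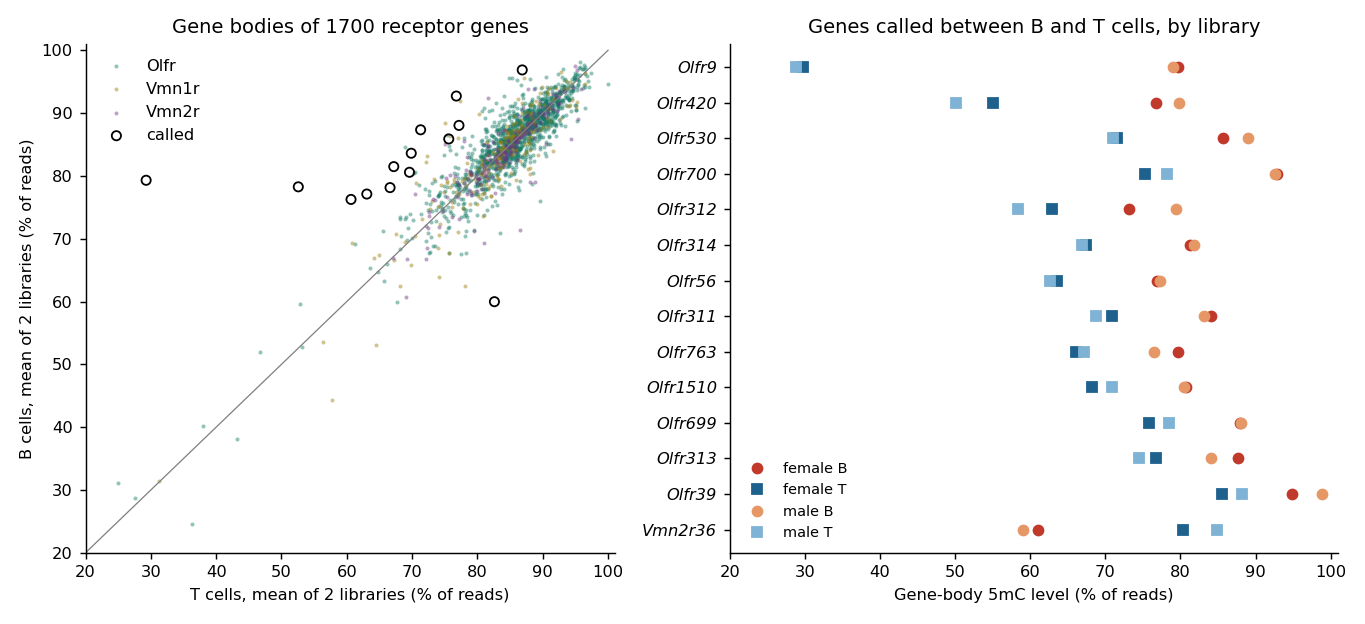
Left, gene-body 5mC level in percent of reads in B against T cells (means of 2 libraries each) for 1700 receptor genes, with called genes circled and the diagonal marking equal levels; right, the 4 libraries of each of the 14 called genes. Olfr9 lies farthest from the diagonal, at 79.6% and 79.0% in B and 29.7% and 28.8% in T cells.

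Few receptor gene starts differed. Of 49687 genes with a measured window of 1 kb to either side of the start 5.80% were called, 4.25% with more methylation in B cells and 1.55% with more in T cells, and of 1690 receptor genes 21 were, 15 of them upwards and 6 downwards in B cells. For starts the edgeR test used a spread shared over genes and not that of each gene. The count of receptor genes was 11 within 500 bases of the start. It was 11 by limma, against 1530 of all genes, and 12 by limma with a variance trend, against 1927 of all genes. By the last, the starts of Olfr531 (adjusted p = 0.0513), Olfr61 (adjusted p = 0.127), Vmn1r42 and Vmn1r43 were among those that did not pass. The start of Vmn2r27, a vomeronasal receptor gene on chromosome 6, stood at 60.2%, 95.1%, 61.4% and 90.2% over 8 CpGs. It was lower in B cells by 31.9 points, that is a B minus T difference of -31.9 (adjusted p = 1.09e-11), the largest such difference among receptor gene starts. The RefSeq promoter window of Vmn2r27, chr6:124231735-124232034 on the minus strand of GRCm38, is shown because it contains no CG. The CpGs behind this difference therefore lie outside it. In this window the RefSeq start falls on an ATG, so that it may not cover the start of transcription.
Vmn2r27 promoter: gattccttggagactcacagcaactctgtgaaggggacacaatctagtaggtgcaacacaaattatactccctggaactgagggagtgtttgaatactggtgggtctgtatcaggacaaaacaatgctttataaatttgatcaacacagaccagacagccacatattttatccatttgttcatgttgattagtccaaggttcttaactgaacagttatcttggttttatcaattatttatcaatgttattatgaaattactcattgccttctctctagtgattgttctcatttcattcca
Over the whole body Vmn2r27 differed by -5.54 points (adjusted p = 0.000313), while its neighbour Vmn2r26, which marks a much studied population of vomeronasal neurons, differed by 5.32 points in the other direction (94.3%, 88.1%, 93.5% and 89.1%, adjusted p = 4.83e-05). Both are under the minimum of 10 points.

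The starts of Olfr60 and Olfr61 on chromosome 7 were also lower in B cells, with differences of -15.4 points (adjusted p = 0.000123) and -10.9 points (adjusted p = 0.0362). Olfr60 stood there at 76.1%, 91.1%, 69.0% and 84.7%. Starts of Olfr530 and Olfr531, which lie between both of them on the chromosome, were higher in B cells by 23.1 and 26.4 points. The largest differences towards B cells were at the starts of Olfr1421-ps1 (88.8%, 58.5%, 91.0% and 67.3%, 27.0 points, adjusted p = 8.97e-10), Olfr312 (44.7%, 19%, 50% and 22.7%, 26.5 points, adjusted p = 6.82e-06) and Olfr531 (93.0%, 60%, 87.8% and 67.9%, 26.4 points, adjusted p = 0.000229). The Olfr531 window held 4 CpGs and that of Olfr312 6. Starts of the adjacent Vmn1r42 and Vmn1r43 share their CpGs and count as 1 observation of -10.3 points.

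Receptors with known ligands or a history as model receptors were examined whatever their value. Olfr1507, known as MOR28 and as the gene nearest to the H element, a receptor enhancer, had 90.1%, 82.7%, 91.0% and 81.9% over its body, a difference of 8.27 points (adjusted p = 0.000809) that stayed under the minimum. Its start was called, with 86.3%, 61.7%, 84.0% and 64.2% and a difference of 22.3 points (adjusted p = 7.33e-09). Olfr1510 of the same cluster was called at its start as well (93.2%, 73.4%, 97.2% and 79.9%, 18.6 points, adjusted p = 1.88e-12). The other members of this group did not pass. Olfr2, the I7 receptor of aldehydes, stood at 87.5%, 85.9%, 86.1% and 81.2%, and Olfr17, known as P2, at 87.7%, 87.3%, 89.7% and 83.0%. Olfr151, known as M71, and Olfr160, known as M72, both studied for acetophenone, differed by 2.04 and -2.52 points. Olfr16 (MOR23), Olfr73, Olfr78 and Olfr544 differed by 1.70, -1.34, 0.396 and 1.496 points. Olfr78 and Olfr544 are class I receptors that also have reported roles outside the nose, and they stood at 84.9% to 85.8% and 87.2% to 90.05%. The vomeronasal Vmn1r85, Vmn1r89 and Vmn2r1 differed by 1.76, 1.73 and -1.81 points. Vmn2r116, the receptor of the male pheromone ESP1, was lower in level, at 71.0%, 77.4%, 75.9% and 74.8%.

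Between females and males, and for a B minus T difference that differs between the sexes, no receptor gene body was called, nor with limma or without the minimum difference. At an unadjusted p below 0.05 edgeR found 38 and 45 of 1700, 2.24% and 2.65%, against 8.02% and 4.07% of all other genes. With 4 libraries a B minus T difference that differs between the sexes could be fitted only in place of the sex term, so that a sex effect then counts as spread, and the missing calls do not show that the sexes are alike. Over all genes 0.00462% and 0.00231% were called, 2 genes and 1 gene of 43259.

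Genes that carry the receptors' signal or set their choice varied widely in level. Of 14 genes of odorant transduction, from the G protein subunit Gnal to the olfactory marker protein Omp, none was called, and their levels ran from 24.2% to 95.4%. Of 8 genes of vomeronasal transduction 1 was called, Gnai2, which encodes a G protein subunit also used in leukocytes, with 61.5%, 44.5%, 64.96% and 43.3%. Of 16 annotated entries of receptor choice regulators, with Ddit3 counted as 2 entries, 2 were called as higher in B cells. These were the lamin B receptor gene Lbr (60.7%, 49.4%, 65.3% and 55.7%) and 1 of the pair of annotated genes named Ddit3 (25.04%, 12.5%, 23.6% and 15.8%). The median level over the 16 entries was 67.3%, and at their starts 2.59%. Other chemoreceptor families were highly methylated as well. The median level was 93.5% over 16 Taar genes, which encode trace amine receptors, 86.4% over 35 taste receptor genes and 87.5% over 8 Fpr genes, and 0, 2 and 0 of them were called, against 5.73% of all genes. Of other clustered families, 49 keratin-associated Krtap genes had a median of 90.6%, 60 defensin genes 87.1%, 11 Skint genes 85.1%, 43 Mup genes, which encode urinary pheromone carriers, 88.0%, and 10 genes of the H2-Mv group, expressed in vomeronasal neurons, 85.3%. Krtap and defensin genes had 1 call each, and the other groups had none.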

How the data were processed

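Whole-genome oxidative bisulfite sequencing was made from splenic B and T cells of C57BL/6J mice. Per the labels and the study's methods, the authors trimmed reads with Trim Galore, checked them with FastQC, aligned them to mm10 with Bismark 0.13.1 (as the submitters' processing notes name them) and deposited, per CpG with at least 5 reads, the methylated fraction and the read count. Cells of several mice were pooled for a library. The fractions are rounded up to 3 decimals, and whole methylated reads were recovered from all of them. The deposited positions were matched to CG sites of GRCm38, and genes were taken from GENCODE M21. CpGs listed in all 4 tables were summed over each gene body, its exons, and 1 kb to either side of its start. Reads at overlapping genes count for each gene, and neither strand nor near-identical copies are separated beyond the authors' alignment.

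Methylated and unmethylated read counts were tested with edgeR 4.0.16 (quasi-likelihood, 1 residual degree of freedom, common dispersion) and Benjamini-Hochberg adjustment over all genes with at least 3 CpGs. The p-values measure only the spread between these libraries, moderated over genes. The prior degrees of freedom were 27.3 for gene bodies and infinite for exons and starts. The p-values of exons and starts thus use a spread shared over genes and none of the gene's own. The script was tested on simulated data, in which small differences were often missed. For a B minus T difference that differs between the sexes, the sex term was replaced by that contrast. limma 3.58.1 on log2 ratios with 0.5 added was the alternative. Near-identical copies were members whose exons matched another member at 95% identity or more over 90% of their length (blastn 2.17.0). Percentiles and intervals used pandas 2.3.3 and scipy 1.17.1. The members and lists were chosen with earlier results of these data known. Named genes were, by rule, the largest called differences (up to 5 Olfr, 3 Vmn1r and 3 Vmn2r genes per direction; 3 for gene starts), the 3 lowest and 2 highest levels of each family, the extreme clusters and 14 known receptors; other called genes were added after their values were seen. Stretches of sequence were moved off exon parts outside the coding sequence.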

Additional observations from a re-analysis of the deposited data

How the results depend on the processing

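The count of 14 called receptor genes was 45 without the minimum difference and 3 at 20 points or more. Plain limma called 0, as of all 43259 genes, with 169 receptor genes at an unadjusted p below 0.05, a count given without a share over all genes. The limma fit whose prior variance follows the reads, chosen after seeing the data, called 11, against 2192 of all 43259 genes. Without each library in turn the count ran from 10 to 21, and 9 to 11 of the 14 remained. It stayed between 13 and 19 with 5 CpGs, 10 reads per CpG, exons only, coding genes only or no near-identical copies. Over exons, 8 of 13 called genes with a value remained called. The count of 21 called gene starts was 11 within 500 bases, 11 by limma and 12 by limma with the variance trend. Over all genes limma called 1530 starts and limma with the trend 1927. The median level of Olfr genes moved from 86.2% to 86.9% with 10 reads per CpG and 87.2% in exons, that of Vmn1r genes from 83.9% to 84.3% in exons and 83.4% in coding genes, and that of Vmn2r genes from 84.5% to 84.2% with unweighted CpGs, 85.4% with 10 reads and 84.1% in coding genes. The median B minus T difference of Vmn1r genes moved from 0.0332 to 0.364 points with 10 reads, -0.0763 in exons and 0.220 without near-identical copies, so its sign is not settled. Over whole cluster spans the range of levels was 22.7 points in Olfr, 13.2 in Vmn1r and 15.4 in Vmn2r clusters, against 13.0, 9.64 and 13.7, and with a gap of 0.5 Mb it was 16.2 in Vmn2r. The causes were not tested. The main test already paired the B and T cell libraries of each sex, and the labels share no replicate numbers that would allow another pairing. Depth limits genes of few CpGs most. Of annotated genes, 31.9% of Vmn1r and 24.7% of Vmn2r have near-identical copies, against 5.43% of Olfr. Among measured genes these were 41 of 224 Vmn1r, 39 of 193 Vmn2r and 56 of 1283 Olfr genes.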

Other observations

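Known transcription factor motifs were counted in the RefSeq promoters (250 bases before to 50 after a start, GRCm38, both motifs read the same on either strand). The homeodomain core TAATTA was present in 18.7% of 942 Olfr, 7.28% of 206 Vmn1r and 17.1% of Vmn2r promoters, and in 5.27% of all 31396 promoters. The core CCCNNGGG of Ebf factors was present in 3.08%, 0.485% and 19.7% of the same families and in 13.9% of all promoters. A match describes letters in this window and not a bound site.

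The class I cluster surrounds the beta-globin genes. Hbb-bt stood at 52.7%, 70.3%, 50.7% and 76.6% and Hbb-bs at 82.4%, 96.7%, 80.2% and 98.2%, with both B cell libraries below both T cell libraries. Hbb-y stood at 94.6%, 92.5%, 92.2% and 93.0%. These genes were chosen after the cluster was seen, and no test result is given for them.

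Low levels were shared by a pair of neighbours on chromosome 17. Olfr95, next to Olfr94, stood at 42.4%, 39.9%, 37.8% and 36.1%, while Olfr96 beyond it stood at 73.7%, 75.2%, 78.2% and 77.6% and Olfr93 on the other side at 88.3%, 85.1%, 87.6% and 86.0%. On chromosome 14 the receptor genes Olfr1510 and Olfr1507 lie on either side of Olfr1509 and the T cell receptor segment Trav1. Olfr1509 stood between them at 64.8%, 63.7%, 65.9% and 63.4%, without their difference between B and T cells.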
